A study of Homo sapiens with 6 samples.

Results

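The aldo-keto reductases described here are 10 human genes of the AKR1A, AKR1B, AKR1C and AKR7A subfamilies: AKR1A1, AKR1B1, AKR1B10, AKR1B15, AKR1C1, AKR1C2, AKR1C3, AKR1C4, AKR7A2 and AKR7A3. They were taken by symbol, as all genes in the count tables whose Ensembl identifier maps to these names, and make up 10 of 60604 genes read. After the filter on low counts 8 of the 10 were among the 17200 genes tested. AKR1B15 and AKR1C4 fell below it and are given as counts.

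RNA came from AGS cells, an established line of human gastric adenocarcinoma grown in DMEM with serum. The indomethacin group is 3 libraries of cells given 0.5 mM of the drug for 24 h, and the control group is 3 libraries of cells at 0 mM, for which the labels name no time. Indomethacin is a non-steroidal anti-inflammatory drug that inhibits cyclooxygenases. Nothing in the labels says that replicates were separate cultures, so the p-values measure the spread between these libraries, which may be technical.

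Aldo-keto reductases use NADPH to reduce aldehydes and ketones to alcohols, and most of the 10 encode cytosolic enzymes that act as monomers. The AKR1C enzymes convert ketosteroids and prostaglandins as well as carbonyl toxins, and AKR1C3, which makes prostaglandin F from prostaglandin D and H and testosterone from androstenedione, is a known protein target of indomethacin. AKR1B1, aldose reductase, turns glucose into sorbitol in the polyol pathway, AKR1B10 reduces retinal and lipid aldehydes and is made in normal intestine, AKR1A1 is aldehyde reductase, and the AKR7A enzymes reduce succinic semialdehyde and the dialdehyde of aflatoxin.

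The 4 AKR1C genes lie side by side on chromosome 10 (hg38, coordinates from the count tables). AKR1C1 (ENSG00000187134) spans chr10:4963253-4983283 on the plus strand, AKR1C2 (ENSG00000151632) spans chr10:4987400-5018031 on the minus strand, AKR1C3 (ENSG00000196139) spans chr10:5035354-5107686 on the plus strand and AKR1C4 (ENSG00000198610) spans chr10:5195462-5218949 on the plus strand. AKR1C1 and AKR1C2 are 4116 bases apart. The 250 bases before their RefSeq transcription starts (GRCh38.p14) are shown because the copies differ in how far they moved. Sequences run 5′ to 3′ on the gene's strand, and within the aligned stretch capitals mark bases that differ from the AKR1C1 window or are inserted relative to it, while bases past either end of the alignment are left in lower case. The windows are chr10:4963165-4963414 for AKR1C1, chr10:5003858-5004107 for AKR1C2, chr10:5048531-5048780 for AKR1C3 and chr10:5196587-5196836 for AKR1C4.
AKR1C1: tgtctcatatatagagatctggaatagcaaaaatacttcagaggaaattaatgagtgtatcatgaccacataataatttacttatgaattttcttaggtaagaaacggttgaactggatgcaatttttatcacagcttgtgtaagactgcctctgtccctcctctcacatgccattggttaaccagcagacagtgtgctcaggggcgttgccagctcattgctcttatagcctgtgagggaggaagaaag
AKR1C2: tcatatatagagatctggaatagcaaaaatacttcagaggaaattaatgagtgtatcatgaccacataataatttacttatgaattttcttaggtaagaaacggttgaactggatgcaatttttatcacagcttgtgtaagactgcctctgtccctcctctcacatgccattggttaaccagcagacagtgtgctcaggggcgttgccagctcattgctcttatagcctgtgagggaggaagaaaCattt
AKR1C3: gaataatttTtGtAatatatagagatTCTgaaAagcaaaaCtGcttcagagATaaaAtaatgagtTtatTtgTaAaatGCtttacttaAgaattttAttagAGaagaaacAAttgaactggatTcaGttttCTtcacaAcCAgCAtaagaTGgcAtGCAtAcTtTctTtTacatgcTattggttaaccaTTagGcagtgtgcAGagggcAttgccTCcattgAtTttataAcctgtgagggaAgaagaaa
AKR1C4: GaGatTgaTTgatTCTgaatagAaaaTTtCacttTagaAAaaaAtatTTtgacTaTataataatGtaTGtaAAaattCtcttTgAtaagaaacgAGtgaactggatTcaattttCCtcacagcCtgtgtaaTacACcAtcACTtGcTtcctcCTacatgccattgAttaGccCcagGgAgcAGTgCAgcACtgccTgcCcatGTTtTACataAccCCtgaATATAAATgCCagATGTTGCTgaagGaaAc
The AKR1C2 window matched that of AKR1C1 at 245 of 246 aligned bases (99.6%). The AKR1C3 window matched it at 74.0% of 250 aligned positions, and the window before a second AKR1C3 start, at chr10:5094164-5094413, at 73.6%. The AKR1C4 window matched it at 61.2% of 263 aligned positions. The windows of AKR1C2, AKR1C3 and AKR1C4 lie inside the longer gene bodies of the count tables' annotation, and that of AKR1C1 overlaps its gene's first bases.

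The coding sequences are also close, which bears on how reads of 100 bases can be assigned. In GENCODE 29 transcripts (GRCh38) the AKR1C1 and AKR1C2 coding sequences differed at 19 of 972 bases, an identity of 98.0%, with identical runs of up to 189 bases. AKR1C1 shared 91.9% of its coding bases with AKR1C3 and 88.7% with AKR1C4. The first 100 coding bases are shown as 1 such read length, with capitals at the bases that differ from AKR1C1.
AKR1C1: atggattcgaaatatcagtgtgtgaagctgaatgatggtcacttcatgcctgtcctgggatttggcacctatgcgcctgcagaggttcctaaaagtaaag
AKR1C2: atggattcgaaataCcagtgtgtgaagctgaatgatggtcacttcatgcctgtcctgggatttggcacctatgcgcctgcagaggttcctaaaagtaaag
AKR1C3: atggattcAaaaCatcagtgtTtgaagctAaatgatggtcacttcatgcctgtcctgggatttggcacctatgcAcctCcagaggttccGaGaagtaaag
AKR1C4: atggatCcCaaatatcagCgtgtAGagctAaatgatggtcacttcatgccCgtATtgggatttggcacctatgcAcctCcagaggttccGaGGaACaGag
Over this stretch AKR1C2 differed from AKR1C1 at 1 base, AKR1C3 at 8 and AKR1C4 at 17. Of all distinct 100-base words in the transcripts of a gene, 16.7% of those of AKR1C1 and 23.1% of those of AKR1C2 also occurred in another gene, nearly all of them in each other. The share was 1.7% for AKR1C3, 1.6% for AKR1B10, 0.5% for AKR1B15, 0.3% for AKR1C4 and for AKR7A2, 12.2% for AKR7A3 (shared with its neighbour copy AKR7L) and 0 for AKR1A1 and AKR1B1. Each word was counted once over all annotated transcripts, whatever their level, so these are not shares of reads. Reads were sequenced in pairs, and a word stands for 1 read of a pair, not for the pair. How reads that map to several places were counted is not given in the sources used here. The split of counts between AKR1C1 and AKR1C2, and the low counts of AKR7A3, are therefore uncertain.

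Total counts were 17535435 to 20094302 in the indomethacin libraries and 20983189 to 23221077 in the control libraries. Epithelial markers summed to 2601 to 2894 CPM (counts over the TMM-adjusted library size, per 1e6) with indomethacin and 3153 to 3637 CPM in controls, with 1 of 5 higher (CDH1), 2 lower (EPCAM and KRT8) and 2 not past, while COL1A2, COL3A1, DCN and LUM of fibroblasts and PTPRC and CD3E of leukocytes had at most 15 counts over the 3 libraries of either group. The 6 fibroblast markers summed to 9.67 to 11.5 CPM with indomethacin and 6.52 to 8.62 CPM in controls, with COL1A1 higher and PDGFRB lower. LYZ, which leukocytes and gastric epithelium both make, averaged 121.7 ± 3.84 CPM with indomethacin and 1102 ± 436 CPM in controls (SD, n = 3 each) and was lower. Of 7 stomach product markers 3 were tested, with TFF1 and TFF2 higher and PGC lower. Mitochondrially encoded genes took 16.7% to 19.7% of counts with indomethacin and 22.8% to 26.8% in controls, and the direction and call of AKR1C1, AKR1C2, AKR1C3 and AKR7A2 held with library sizes computed without them.

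Of the 8 members tested, 3 were higher with indomethacin (AKR1C1, AKR1C2 and AKR1C3), 2 were lower (AKR7A2 and AKR7A3) and 3 did not pass the threshold (AKR1B10, AKR1B1 and AKR1A1) at an adjusted p of 0.05 (edgeR, quasi-likelihood, Benjamini-Hochberg). Most of the transcriptome differed between the groups: 61.6% of the 17200 genes passed, with 30.6% of the 17200 higher and 31% lower, so 5 of 8 is near the background. Changes of at least 2-fold were called for 2 members higher (AKR1C1 and AKR1C2) and for 2 lower (AKR7A2 and AKR7A3), against 17.4% of all genes higher and 15.6% lower by that much. Groups of libraries did not overlap for 5 of the 8 members, against 67% of all genes. The median log2 fold change of the 8 was 0.54, against 0.04 over all genes tested. What set members apart from one another was size and direction: log2 fold changes ran between -1.76 and 6.71 within the family.

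**Figure D1:**
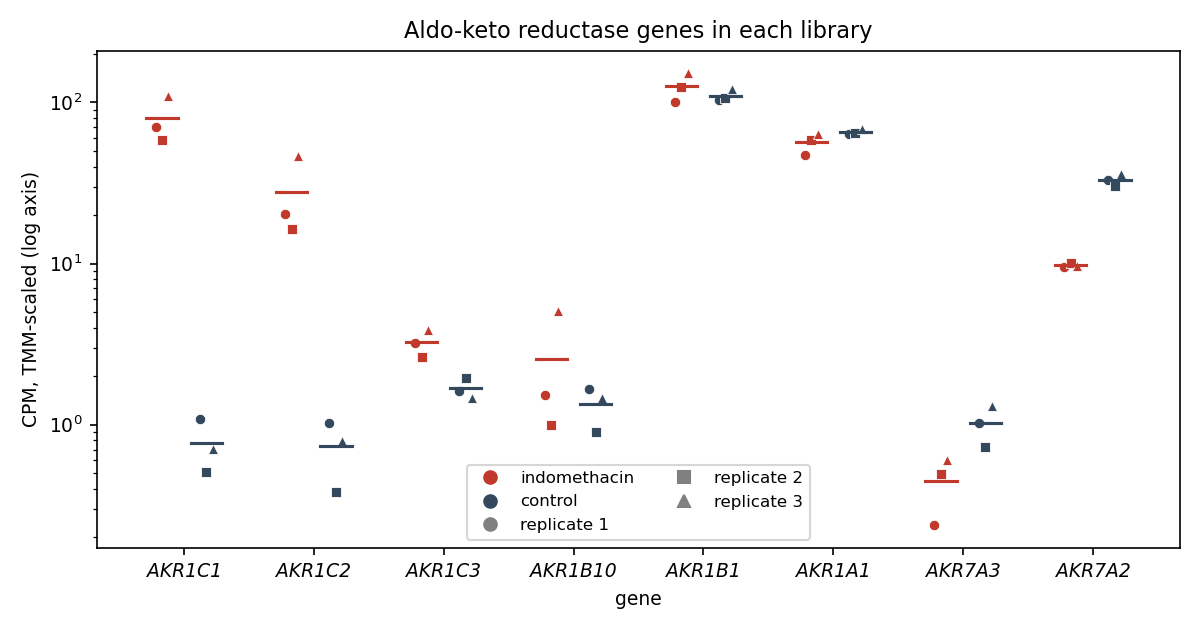
Level of the 8 tested aldo-keto reductase genes in each library, as TMM-scaled CPM on a log axis; symbols are replicates, bars are group means, and indomethacin stands left of control for each gene. AKR1C1 and AKR1C2 lie at 16.3 to 110.3 CPM in the indomethacin libraries and at 0.384 to 1.08 CPM in the control libraries, while AKR1B1 and AKR1A1 overlap between groups.

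AKR1C1, which inactivates progesterone by reducing its 20-ketone, had 70.3, 58.2 and 110.3 CPM in the indomethacin libraries and 1.08, 0.512 and 0.704 CPM in the control libraries. Every indomethacin library was far above every control library, and the counts behind the control levels were only 22, 12 and 15 reads. The log2 fold change was 6.71 with a standard error of 0.29, a 104.5-fold difference (adjusted p = 5.82e-10, edgeR). Among all 17200 genes it ranked 35 from the highest fold change. In bulk RNA of this kind, fewer or more cells of a state and less or more RNA per cell cannot be told apart.

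AKR1C2, a reductase of dihydrotestosterone that also binds bile acids, had 20.3, 16.3 and 46.8 CPM with indomethacin and 1.03, 0.384 and 0.798 CPM in controls. The groups again did not overlap, and indomethacin replicate 3 stood above its 2 partners by more than 2-fold. The log2 fold change was 5.24 with a standard error of 0.43, a 37.9-fold difference (adjusted p = 1.78e-07, edgeR), at rank 73 of all genes from the highest.

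AKR1C3, the steroid 17-ketoreductase and prostaglandin F synthase that indomethacin inhibits as a protein, had 3.23, 2.63 and 3.85 CPM with indomethacin and 1.62, 1.96 and 1.45 CPM in controls. The lowest indomethacin library was above the highest control library, on 53 to 68 reads with indomethacin and 31 to 46 reads in controls. Its log2 fold change of 0.94 had a standard error of 0.27, a 1.91-fold difference (adjusted p = 0.00775, edgeR) at rank 3332 of all genes from the highest.

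AKR1C4, the liver member of the cluster that reduces bile acid precursors, had 1, 0 and 2 counts in the indomethacin libraries and 0, 3 and 1 counts in the control libraries. These sums of 3 and 4 counts gave a ratio of 0.846 with an exact 95% interval of 0.124 to 5.00, which covers counting error only, so no difference was detectable at this depth. A stretch of 83 exonic bases of AKR1C4 overlaps a gene on the opposite strand that had 0 counts in all 6 libraries.

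Reads given to the wrong copy within the cluster do not alter its sum, although reads left uncounted would. AKR1C1 to AKR1C4 together had 93.9, 77.1 and 161.0 CPM with indomethacin and 3.73, 2.99 and 3.00 CPM in controls, a mean of 110.7 ± 44.4 CPM with indomethacin and 3.24 ± 0.423 CPM in controls (SD, n = 3 each) and a 34.2-fold ratio of means. The makeup of this sum differed between groups. AKR1C1 took 72.9% ± 3.84 of the AKR1C counts with indomethacin and 23.2% ± 5.91 in controls, while AKR1C3 took 3.08% ± 0.601 with indomethacin and 52.5% ± 11.7 in controls (SD, n = 3 each). The share of AKR1C2 was 23.9% ± 4.41 with indomethacin and 22.3% ± 8.24 in controls.

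**Figure D2:**
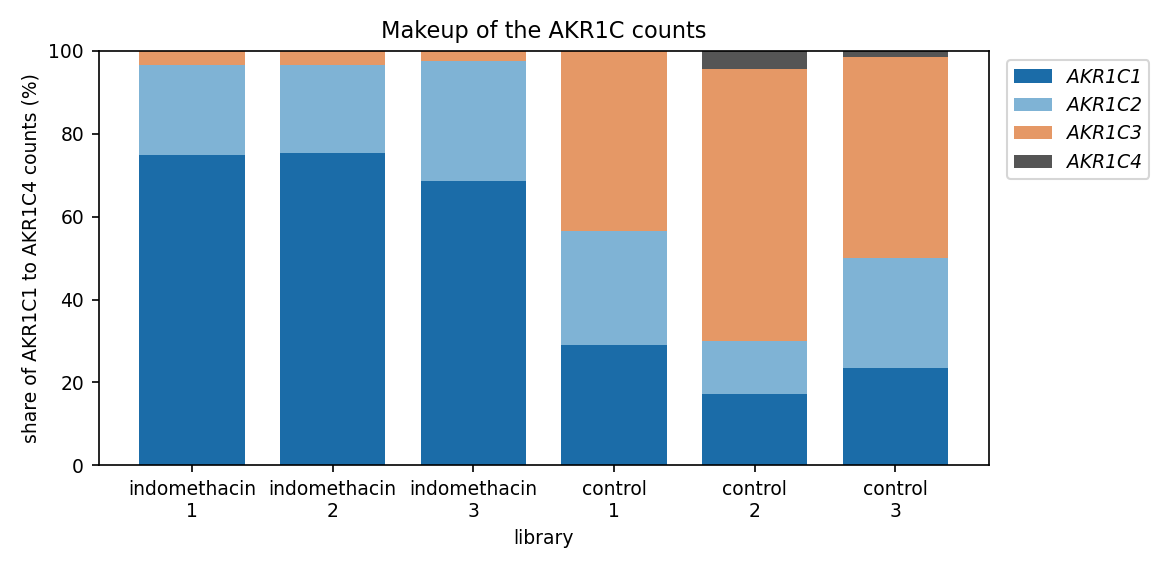
Share of each AKR1C gene in the summed AKR1C1 to AKR1C4 counts of a library, in percent, for the 3 indomethacin and the 3 control libraries. AKR1C1 holds 68.5% to 75.4% of the counts in the indomethacin libraries, and AKR1C3 holds 43.4% to 65.7% in the control libraries.

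Within a library, ratios between copies do not depend on library scaling. Per kilobase of annotated exon, the log2 ratio of AKR1C1 over AKR1C2 was 1.35, 1.39 and 0.80 in the indomethacin libraries and -0.37, -0.02 and -0.62 in the control libraries. The groups did not overlap, and the means differed by 1.52. The log2 ratio of AKR1C1 over AKR1C3 averaged 3.42 ± 0.22 with indomethacin and -2.35 ± 0.69 in controls, a difference of 5.77, and that of AKR1C2 over AKR1C3 averaged 2.24 ± 0.56 with indomethacin and -2.02 ± 0.93 in controls, a difference of 4.25 (SD, n = 3 each). For each of these 3 ratios the two-sided exact permutation test over libraries gave p = 0.1, also after adjustment over the 3, which is the smallest value that 3 against 3 libraries allow and does not pass 0.05.

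Windows of 300 bases around the RefSeq starts, 250 before and 50 after, were available for 8 of the 10 members and were searched on both strands for short motifs. The CCAAT box (CCAAT) was found on the minus strand of the windows of AKR1C1 at -77, AKR1C2 at -81 and AKR1C3 at -73 from the start, on the plus strand of the AKR1B1 window at -98, and in 34.6% of all 35116 human windows. The core of the antioxidant response element (TGACNNNGC), the sequence that NRF2 binds with small MAF proteins, matched none of the AKR1C windows and was found 3 times in that of AKR7A2, at -167, -156 and -95, against 13.3% of all windows with at least 1 match. The AP-1 motif (TGANTCA, in 7.71% of all windows) had no match in any member's window. The xenobiotic response element (GCGTG, in 36.5% of all windows) matched in the windows of AKR7A2, AKR7A3 and AKR1B1, the TATA box (TATAAA, in 11.5%) in those of AKR1C3 and AKR1C4, and the SP1 box (GGGCGG, in 45%) in those of AKR7A2, AKR7A3, AKR1A1 and AKR1B1. These matches describe letters in a short window and nothing else.

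AKR1B1 (ENSG00000085662, chr7:134442356-134459284, minus strand), aldose reductase, had 101.1, 124.5 and 151.4 CPM with indomethacin and 103.3, 107.0 and 120.2 CPM in controls. The groups overlapped. The log2 fold change of 0.19 with a standard error of 0.14 did not pass (adjusted p = 0.242, edgeR). Its neighbour AKR1B10 (ENSG00000198074, chr7:134527567-134541412, plus strand), the retinal reductase, had 1.52, 0.994 and 5.11 CPM with indomethacin and 1.67, 0.896 and 1.45 CPM in controls. Indomethacin replicate 3 alone stood above the control libraries, with 85 reads against 32 and 20 in the other two of its group. The log2 fold change of 0.90 with a standard error of 0.50 did not pass (adjusted p = 0.137, edgeR); it was -0.09 without that library and 1.29 without indomethacin replicate 2, where it passed (adjusted p = 0.0382, edgeR).

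AKR1B15 (ENSG00000227471, chr7:134549110-134579875, plus strand), a close copy 7697 bases beyond AKR1B10 with 91.3% identical coding bases, had 3, 0 and 2 counts with indomethacin and 1, 1 and 0 counts in controls. The ratio of 2.82 had an exact 95% interval of 0.461 to 29.6. No difference was detectable at this depth. Together AKR1B10 and AKR1B15 averaged 2.63 ± 2.28 CPM with indomethacin and 1.37 ± 0.396 CPM in controls (SD, n = 3 each), a sum in which AKR1B10 held at least 91.4% of the counts in each library.

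Indomethacin replicate 3 had the highest level of its group in 7 of the 8 members tested (87.5%), the exception being AKR7A2, against 37.8% of all genes tested. It also had the fewest counts of the 6 libraries. Without this library the log2 fold change was 6.39 for AKR1C1, 4.64 for AKR1C2 and -0.09 for AKR1B10. With all 6 libraries it was 6.71, 5.24 and 0.9. Over the 6 fits that left out 1 library AKR1C1 ran from 6.39 to 6.97 and AKR1C2 from 4.64 to 5.51. Both were lowest without indomethacin replicate 3. Adjusted p was at most 1.93e-08 for AKR1C1 and 3.12e-06 for AKR1C2 by edgeR.

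AKR1A1 (ENSG00000117448, chr1:45550543-45570049, plus strand), aldehyde reductase, which in mice also serves ascorbate synthesis, had 47.0, 58.8 and 63.9 CPM with indomethacin and 63.2, 64.4 and 68.5 CPM in controls. The groups overlapped only by the highest indomethacin library. The log2 fold change of -0.21 with a standard error of 0.12 did not pass (adjusted p = 0.146, edgeR). Without indomethacin replicate 3 it was -0.32 and passed (adjusted p = 0.0359, edgeR).

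AKR7A2 (ENSG00000053371, chr1:19303965-19312144, minus strand), the succinic semialdehyde reductase, had 9.46, 10.1 and 9.67 CPM with indomethacin and 33.0, 30.2 and 35.7 CPM in controls. Every indomethacin library was below every control library, and the SD of 0.323 CPM over the indomethacin libraries was small. AKR7A2 fell by 1.76 on the log2 scale with a standard error of 0.12, to a level 3.39-fold lower than in controls (adjusted p = 4.21e-08, edgeR). It ranked 1184 of 17200 from the lowest fold change.

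AKR7A3 (ENSG00000162482, chr1:19282573-19288770, minus strand), the aflatoxin aldehyde reductase, had 5, 10 and 10 counts with indomethacin and 21, 17 and 28 counts in controls. In CPM the indomethacin libraries held 0.238, 0.497 and 0.601 and the control libraries 1.03, 0.725 and 1.31, with no overlap. AKR7A3 fell by 1.21 on the log2 scale with a standard error of 0.44 (adjusted p = 0.0278, edgeR). This call was lost with DESeq2 (adjusted p = 0.0552) and without indomethacin replicate 1, indomethacin replicate 2, control replicate 1 or control replicate 3, with log2 fold changes of -1.47 to -0.92 over the 6 fits that left out 1 library. AKR7L, the copy with which AKR7A3 shares sequence, had 6 counts over the indomethacin libraries and 21 over the control libraries. AKR7A2 and AKR7A3 together averaged 10.2 ± 0.454 CPM with indomethacin and 34.0 ± 3.05 CPM in controls (SD, n = 3 each). AKR7A2 held at least 94% of the counts of this sum in each library and AKR7L is not in it, so the sum says little about AKR7A3.

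**Figure D3:**
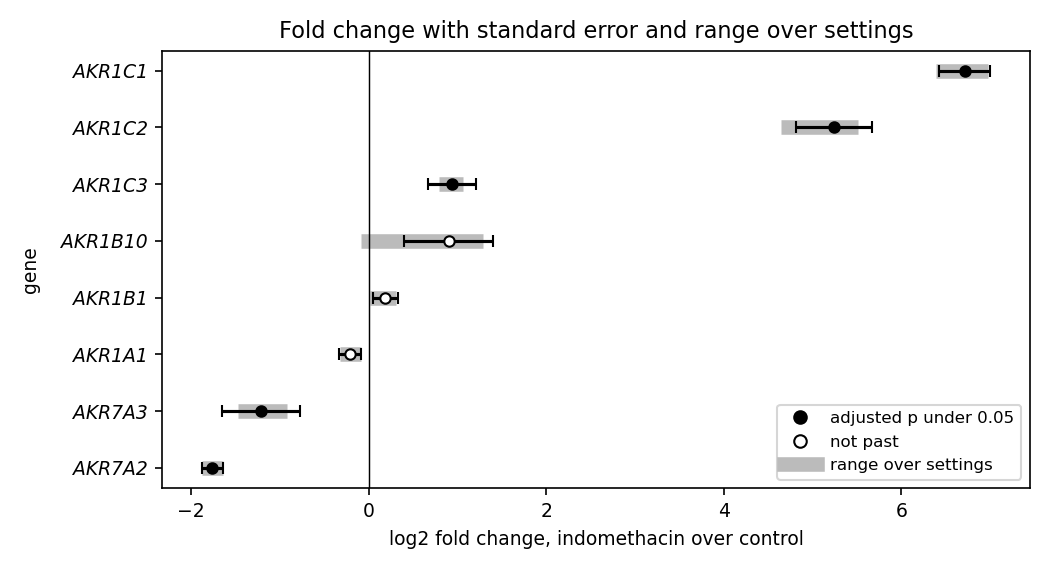
Log2 fold change of indomethacin over control for the 8 tested members, with the standard error as bars; filled points passed an adjusted p of 0.05 in edgeR, and grey bands span all 15 settings tried (14 for AKR7A3). AKR1C1 at 6.71 and AKR1C2 at 5.24 stand far from the rest, AKR7A2 at -1.76 is lowest, and the band of AKR1B10 crosses 0.

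Levels per kilobase of annotated exon put the members in a different order in the 2 groups. With indomethacin AKR1B1 was highest at 34.4 ± 6.88 CPM per kb, followed by AKR1A1 at 18.1 ± 2.78, AKR1C1 at 9.08 ± 3.11, AKR7A2 at 5.48 ± 0.182 and AKR1C2 at 4.30 ± 2.56. Below these came AKR1B10 at 1.43 ± 1.26 CPM per kb, AKR1C3 at 0.828 ± 0.155 and AKR7A3 at 0.366 ± 0.154 (SD, n = 3). Neighbours whose libraries overlapped in this order were AKR7A2 and AKR1C2, AKR1C2 and AKR1B10, and AKR1B10 and AKR1C3. Within each indomethacin library, however, AKR1C2 was above AKR1B10. In controls AKR1B1 at 30.1 ± 2.43 CPM per kb, AKR1A1 at 20.9 ± 0.887 and AKR7A2 at 18.6 ± 1.55 led, followed by AKR7A3 at 0.842 ± 0.242, AKR1B10 at 0.755 ± 0.225, AKR1C3 at 0.429 ± 0.0663, AKR1C2 at 0.114 ± 0.0506 and AKR1C1 at 0.0873 ± 0.0329 (SD, n = 3). Here AKR7A3 overlapped AKR1B10, AKR1C2 overlapped AKR1C1 and AKR1C1 overlapped AKR1C4. Within each control library AKR1C2 was above AKR1C1 per kb, though only at 0.0594 against 0.0584 in control replicate 2. AKR1C4 and AKR1B15, with the lowest means in both groups, overlapped each other in each. By its mean per kb AKR1C1 was below only AKR1B1 and AKR1A1 with indomethacin, and in controls it lay near AKR1C2 and AKR1C4. This order depends on the annotated exon length, which was 8765 bases for AKR1C1 and 3121 for AKR1A1. In CPM, without division by length, AKR1C1 averaged 79.6 with indomethacin and AKR1A1 56.6, so there AKR1C1 was higher. In controls AKR1C1 averaged 0.765 CPM and AKR1C4 0.0583 CPM. All 10 genes summed to 305.7 ± 75.2 CPM with indomethacin and 214.2 ± 13.9 CPM in controls (SD, n = 3 each), of which AKR1C1 held 25.8% of counts with indomethacin and 0.359% in controls.

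The genes whose pattern over the 6 libraries was most like that of AKR1C1, by the root mean square distance of centred log2 CPM among 10422 genes of at least 5 CPM, were the long non-coding RNA LUCAT1 at 0.40, the receptor phosphatase PTPRH at 0.43, PDE7B-AS1 at 0.46, TDRD9 at 0.48 and NDRG1 at 0.50. In that order their log2 fold changes were 6.34, 7.27, 8.14, 8.17 and 6.10, against 6.71 for AKR1C1. PDE7B-AS1 and TDRD9 averaged 0.0306 and 0.0299 CPM in controls, below the level of 3 counts in a library. The distance depends largely on the difference between the groups in these same data. LUCAT1 averaged 65.2 ± 9.35 CPM with indomethacin and 0.798 ± 0.123 CPM in controls, and NDRG1 averaged 291.4 ± 42.1 CPM with indomethacin and 4.23 ± 0.221 CPM in controls (SD, n = 3 each). Those most like AKR1B10 were CDC6 at 0.45, KLF15 at 0.45, CLU at 0.46, RN7SL752P at 0.47 and MEGF9 at 0.48. CDC6, a replication licensing factor, averaged 123.5 ± 60.6 CPM with indomethacin and 74.5 ± 7.87 CPM in controls (SD, n = 3 each).

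Other genes of the superfamily gave few reads. Of 11 symbols listed 9 were found and 3 were tested. KCNAB3, a potassium channel beta subunit with the aldo-keto reductase fold, averaged 0.898 ± 0.246 CPM with indomethacin and 0.337 ± 0.213 CPM in controls (SD, n = 3 each) and was higher (log2 1.38, SE 0.50, adjusted p = 0.0283, edgeR), while its relatives KCNAB1 at log2 0.43 and KCNAB2 at log2 0.57 did not pass. The pseudogene AKR1C7P had 10, 5 and 4 counts in the indomethacin libraries and 0 in each control library. AKR1D1 had 2 counts with indomethacin and 8 in controls, AKR1C8 had 2 with indomethacin and 0 in controls, AKR1C6P had 0 with indomethacin and 1 in controls, and AKR1E2 had 0 in all libraries.

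AKR1C1, AKR1C2, AKR1C3 and AKR1B10 are textbook targets of NRF2, the transcription factor of the oxidative stress response. Of these members AKR1B10 did not pass. Other NRF2 targets were counted beside them, and whether NRF2 acted on the members was not tested. Of 30 such genes, all tested, 26 were higher with indomethacin, 2 were lower and 2 did not pass, with a median log2 fold change of 1.46, against 30.6% of all genes called higher and a median of 0.04. SQSTM1, the autophagy receptor p62, averaged 2792 ± 285 CPM with indomethacin and 298 ± 15.2 CPM in controls (SD, n = 3 each; log2 3.23). TXNRD1, thioredoxin reductase, averaged 1229 ± 246 CPM with indomethacin and 103.8 ± 3.95 CPM in controls (log2 3.57). GCLC, of glutathione synthesis, rose by log2 3.53 and FTH1, ferritin heavy chain, by log2 3.94. Adjusted p for these 4 genes was 3.78e-10 to 6.01e-10 by edgeR. NQO1, another target on the list, was higher by only log2 0.35 (adjusted p = 0.023, edgeR). PGD at log2 -0.47 and PRDX1 at log2 -0.67 were the 2 that fell.

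NRF2 itself, NFE2L2, averaged 104.1 ± 8.20 CPM with indomethacin and 79.9 ± 8.33 CPM in controls (SD, n = 3 each), a log2 fold change of 0.38 (adjusted p = 0.00908, edgeR). Its repressor KEAP1 averaged 73.1 ± 9.36 CPM with indomethacin and 55.1 ± 4.92 CPM in controls (log2 0.41, adjusted p = 0.00892, edgeR). Of 9 genes for NRF2 and its regulators 7 were higher, 1 lower and 1 not past, with a median log2 fold change of 1.05. Over all genes tested 30.6% were higher and 31% lower, with a median of 0.04. The list mixes NRF2 and its partners with its repressor and genes of its breakdown, so the count gives no direction of NRF2 activity. The small MAF partners moved most, with MAFF at log2 3.28, MAFK at 2.37 and MAFG at 2.03, followed by the related factor NFE2L1 at 1.55. BACH1 rose by log2 1.05. RBX1, of the ubiquitin ligase that degrades NRF2, fell by 1.14 on the log2 scale. CUL3 did not pass (log2 -0.19, adjusted p = 0.127, edgeR).

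Other enzymes that act on carbonyls or steroids, as the members do, were mostly lower. Of 19 tested carbonyl reductases of the short-chain family 5 were higher and 14 lower, with a median log2 fold change of -0.69 and 31% of all genes called lower. RDH10, a retinol dehydrogenase, averaged 44.9 ± 3.12 CPM with indomethacin and 8.24 ± 0.616 CPM in controls (log2 2.45), while DHRS2 fell by 3.87 and DHRS4L2 by 1.37 on the log2 scale. DHRS9 had 82 counts with indomethacin and 1 in controls, a ratio of 92.4 with an exact 95% interval of 16.1 to 3695. Of 14 tested steroid-converting enzymes 0 were higher, 10 lower and 4 not past, with a median of -0.88. HSD17B2, which oxidises 17-hydroxysteroids opposite to AKR1C3, averaged 0.714 ± 0.269 CPM with indomethacin and 14.1 ± 2.19 CPM in controls (log2 -4.33), and STS, HSD11B2 and HSD17B10 fell by 2.12, 1.26 and 1.09 on the log2 scale.

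Of 13 tested genes for prostaglandin synthesis, breakdown, transport and receptors 2 were higher, 9 lower and 2 not past, with a median log2 fold change of -0.83, against 30.6% of all genes higher and 31% lower. PTGS2, the inducible cyclooxygenase, averaged 33.3 ± 10.6 CPM with indomethacin and 3.67 ± 0.716 CPM in controls (log2 3.18, adjusted p = 4.00e-08, edgeR), and PTGR1, a prostaglandin reductase that is also on the list of NRF2 targets, averaged 180.0 ± 8.83 CPM with indomethacin and 35.9 ± 1.72 CPM in controls (log2 2.33). The transporter SLCO2A1 fell by 3.94 and the phospholipase PLA2G4A by 1.96 on the log2 scale. PTGS1, the constitutive cyclooxygenase, had 0 counts with indomethacin and 1 count in controls. Of the 7 genes of the polyol pathway and glyoxalase, which act beside AKR1B1, 0 were higher, 5 lower and 2 not past, with a median of -1.22. SORD, which oxidises the sorbitol that AKR1B1 makes, averaged 19.0 ± 2.61 CPM with indomethacin and 86.7 ± 14.0 CPM in controls (log2 -2.19), and KHK, PARK7 and GLO1 fell by 2.26, 1.25 and 1.22. Of 8 tested genes of retinoid metabolism, among which AKR1B10 acts, 3 were higher, 4 lower and 1 not past. Their median was -0.31, where 61.6% of all genes passed in either direction. The lists are not separate: the higher genes RDH10, DHRS3 and DHRS9 and the lower gene RDH11 are also on the short-chain list. HSD11B2 is on the short-chain and steroid lists, and CBR3 on the NRF2 target and short-chain lists.

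**Figure D4:**
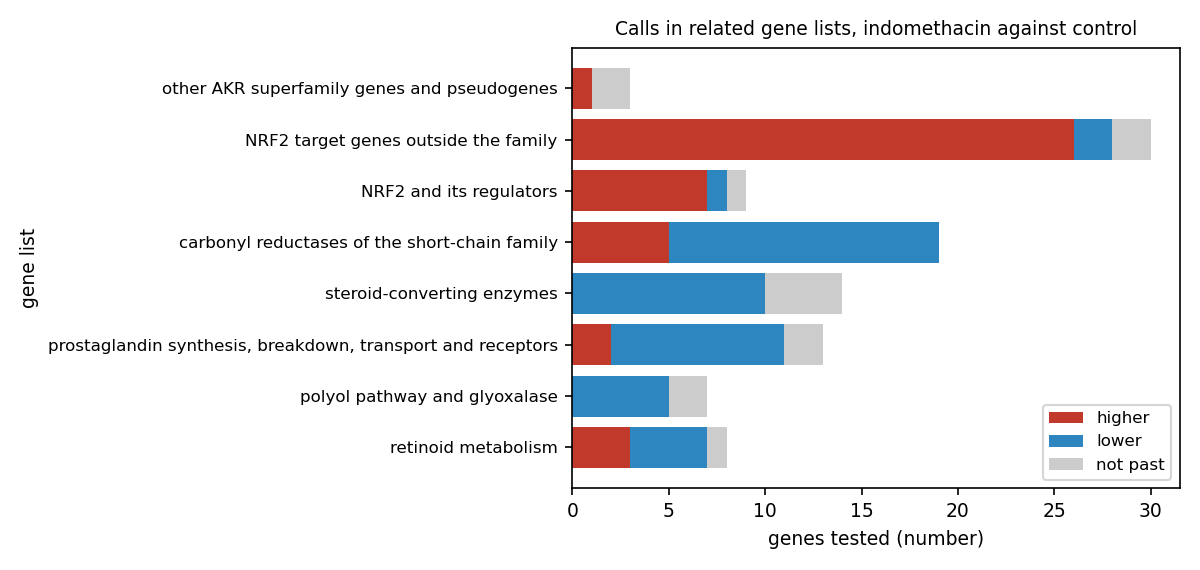
Number of tested genes in each related list that were higher, lower or not past an adjusted p of 0.05 (edgeR) with indomethacin against control. NRF2 targets were 26 of 30 higher, whereas the steroid-converting and the polyol and glyoxalase lists had 0 genes higher.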

How the data were processed

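Total RNA of AGS cells was sequenced after ribosomal RNA depletion with a stranded kit, as read pairs of 100 bases. The deposited values are the authors' raw counts per gene, 1 table a library, with exon positions, strand and length per the file headers. bcl2fastq, FastQC 0.11.7, cutadapt 1.16, HISAT2 2.1.0, SAMtools, featureCounts and DESeq2, with build hg38, are named per the submitters' processing notes. Which annotation release, which strand setting and which handling of multi-mapped reads were used is not given in the sources used here. Each library had 60607 lines of genes, of which 3 were broken and not used, and 60462 of 60604 identifiers had a symbol.

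Counts were filtered (filterByExpr), scaled by TMM and tested with edgeR 4.0.16 (R 4.3.3; quasi-likelihood, group as the only term, all 6 libraries), with Benjamini-Hochberg adjustment over all 17200 genes tested and a threshold of 0.05. The standard error is the one the test statistic implies. CPM uses TMM-scaled library sizes and is given as mean ± SD. With totals of 17535435 to 23221077 counts, 3 counts correspond to 0.129 to 0.171 CPM, a floor that, like the intervals, reflects counting error alone. Replicates were not copies of one another: the chi-square statistic over genes, divided by its degrees of freedom, was 6.99 to 21.9 for pairs within a group. Alternatives were limma-voom (limma 3.58.1), DESeq2 1.42.0, RLE and upper-quartile factors, library sizes without mitochondrially encoded genes, no filter, a filter of 1 CPM in 3 libraries, a block for the replicate number, and leaving out each library. The fits were also run on simulated counts in which few genes changed. That setting does not show how the fits behave where most genes differ between the groups, as here.

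Promoter sequences came from a RefSeq table (GRCh38.p14) that held 8 of the 10 members, and were aligned with Biopython 1.88. Transcripts came from GENCODE 29. Members, gene lists and rules were chosen with earlier results of these data known. Named genes were the 10 members, other superfamily genes, PTGS1, PTGS2, NFE2L2, KEAP1, the most significant genes of each list (at most 4), tested genes within 250 kb of a member, and the 5 genes most like AKR1C1 and the 5 most like AKR1B10. NQO1, PGD, PRDX1, RBX1, BACH1, CUL3, CBR3 and single markers were named after their values were seen. 1 marker of the leukocyte list is not reported here.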

Additional observations from a re-analysis of the deposited data

How the results depend on the processing

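AKR1C1, AKR1C2, AKR1C3 and AKR7A2 kept their direction and passed the threshold in all 15 settings, with log2 fold changes of 6.39 to 6.97, 4.64 to 5.51, 0.79 to 1.06 and -1.87 to -1.64. AKR7A3 passed in 9 of the 14 settings that tested it. With DESeq2 it was -1.23 (adjusted p = 0.0552), and a filter of 1 CPM in 3 libraries removed it, so the count of lower members was 1 under each. That count was 1 to 3 when 1 library was left out, with AKR7A3 at -1.47 to -0.92, AKR1A1 at -0.32 to -0.12, AKR1B1 at 0.02 to 0.30 and AKR1B10 at -0.09 to 1.29. AKR1B10 reversed, to -0.09, without indomethacin replicate 3. AKR1A1 passed with no filter, at -0.32, and without indomethacin replicate 3, and AKR1B1 passed without indomethacin replicate 1, at 0.30. The cause was not tested. Over all genes 9625 to 10520 passed when 1 library was left out, 11722 with no filter and 9635 with the filter of 1 CPM, against 10591. Upper-quartile factors moved the median of all genes to 0.16 on the log2 scale, against 0.04, and gave 6124 higher and 4686 lower genes, with 1 higher steroid-converting enzyme and 2 higher epithelial markers. Deviations of same-numbered libraries correlated at 0.0233, 0.0117 and 0.132, and those of differently numbered libraries at -0.143 to 0.131. With 3 libraries in a group, these values cannot settle whether replicate numbers pair the libraries. With the replicate number as a block 10601 genes and 5 members passed. Low counts limit AKR7A3, AKR1B10, AKR1B15, AKR1C4 and the control levels of AKR1C1 and AKR1C2, and near-identical sequence limits the split between AKR1C1 and AKR1C2.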

Other observations

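Genes within 250 kb of the members were counted beside them; over all genes tested 30.6% were higher and 31% lower. Around the AKR1C cluster, 1 gene outside the family was tested, NET1, a guanine nucleotide exchange factor. It lay within 250 kb of AKR1C4 only, so AKR1C1, AKR1C2 and AKR1C3 had no tested neighbour outside the family. NET1 averaged 101.0 ± 11.8 CPM with indomethacin and 114.5 ± 12.7 CPM in controls (SD, n = 3 each). It did not pass (log2 -0.18, adjusted p = 0.207, edgeR). Around the AKR1B genes 0 of 5 tested neighbours were higher and 3 were lower: CALD1, caldesmon, at log2 -1.55, BPGM at log2 -1.42 and SLC35B4 at log2 -0.63.

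Around the AKR7A genes 2 of 7 tested neighbours were higher and 4 lower. SLC66A1, a lysosomal amino acid transporter whose gene lies 181 bases from that of AKR7A2 on the opposite strand, averaged 27.1 ± 3.68 CPM with indomethacin and 12.2 ± 0.398 CPM in controls (SD, n = 3 each) and was higher (adjusted p = 4.31e-06, edgeR), while AKR7A2 fell by 1.76 on the log2 scale. EMC1 at log2 -0.96, MRTO4 at log2 -1.06, MICOS10 at log2 -1.08 and CAPZB at log2 -0.56 fell and UBR4 at log2 0.87 rose. Around AKR1A1 6 of 17 tested neighbours were higher and 6 lower, close to the shares over all genes, with HPDL at log2 -2.13 and NASP, a histone chaperone, at log2 -1.44 among those that fell.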
